A study of Mus musculus with 6 samples.

Results

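The protein genes of the cytosolic ribosome and of the mitochondrial ribosome were followed in the pituitary gland of male mice labelled RD or HFD. Members were taken by symbol: rows named RPL or RPS with a number, or RPLP, made up the cytosolic class (kinases of the RPS6K family left out), and rows named MRPL or MRPS made up the mitochondrial class. The rule found 163 rows among the 16736 of the count table, 85 cytosolic and 78 mitochondrial, and it used no measured value. Of these, 82 cytosolic and 78 mitochondrial genes passed the filter on low counts that left 13873 genes for testing. The 3 that did not pass were copies known from testis or muscle: RPL10L had 0 counts in every library, RPL39L had 4 counts in RD replicate 1 and 0 in the other libraries, and RPL3L had 6, 7 and 6 counts in the RD libraries and 14, 8 and 8 counts in the HFD libraries. Cytosolic ribosomal proteins with other names, such as RPSA, FAU and RACK1, lie outside the rule and are given apart.

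The study measured polyadenylated RNA of whole pituitary glands in 6 libraries, 3 labelled RD and 3 labelled HFD, and its title names obesity and fatty liver disease. All mice were male and all had fasted for 16 h and then fed for 4 h. The labels carry the diets only as abbreviations, give no strain, age, allele or length of feeding, and do not say whether each library came from its own animal. The p-values therefore rest on the variation between libraries, part of which may be technical. The listed genes summed to between 14185372 and 18111345 counts per library.

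Cytosolic ribosomes make nearly all proteins of the cell from nuclear mRNAs, and in the pituitary these include large amounts of secreted hormones. Most mRNAs of cytosolic ribosomal proteins begin with a run of pyrimidines, the 5′ TOP motif, through which the kinase mTOR and the protein LARP1 control their translation and stability, so that their protein output can change without a change of mRNA level. Mitochondrial ribosomes translate the few mRNAs of the mitochondrial genome into subunits of the respiratory chain, but their own proteins are encoded in the nucleus, made in the cytosol and imported. Part of these proteins descend from the ribosome of the bacterial ancestor and part were gained later in mitochondria.

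Stretches near the transcription start are printed for 3 members of each class, with the longest run of C or T within 50 bases of the start in capitals, 5′ to 3′ on the strand of the gene. They are from RefSeq on GRCm38.p6, and were chosen from abundant members and from those nearest to a call. The stretches lie at chr14:18270969-18270998 on the minus strand (RPL15), chr9:64173405-64173434 on the plus strand (RPL4), chr7:3704027-3704056 on the plus strand (RPS9), chr16:92058345-92058374 on the plus strand (MRPS6), chr6:125192217-125192246 on the plus strand (MRPL51) and chr5:129715453-129715482 on the plus strand (MRPS17).
RPL15: ggagaaagCCTTCTTCCTTTCCTCTggcgg
RPL4: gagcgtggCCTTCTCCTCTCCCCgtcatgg
RPS9: ccgccttgTCTCTCTTTgtctcgggcctga
MRPS6: cggccgtgTTCCTCTCTCgtcttcctctgc
MRPL51: caaaatggCTCCTCTTactgtcactaccgt
MRPS17: gactggcgCCCTgtgaaatgggaggggtgg
The runs were 17, 15 and 9 bases long in the cytosolic genes RPL15, RPL4 and RPS9, and 10, 8 and 4 bases long in MRPS6, MRPL51 and MRPS17. Counted from the annotated start, they began at -4, 27 and -6 in RPL15, RPL4 and RPS9. In MRPS6, MRPL51 and MRPS17 they began at 18, 26 and -36. Only the runs of RPL15 and RPS9 thus spanned the annotated start, and the others are not runs with which the annotated mRNA begins.

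Start windows, 250 bases before to 50 after an annotated start, were matched for 63 cytosolic and 69 mitochondrial genes, with 75 windows in each class, since a gene can have several starts. A run of at least 8 C or T within 50 bases of the start was present in 78.7% of the cytosolic windows, 34.7% of the mitochondrial windows and 35.7% of all 32851 windows. The stricter form, a C at the annotated start itself followed by at least 4 C or T, was met by 17.3% of cytosolic windows, 0 of 75 mitochondrial windows and 2.51% of all windows. This form depends on the annotated base being the true start. At least 1 match to the core of the ETS family motif, CCGGAA on either strand, was present in 45.3% of cytosolic, 57.3% of mitochondrial and 14.9% of all windows. The core AAGATGGC of the factor YY1, also on either strand, was present in 10.7%, 16% and 2.75%. The only overlap searched for was an ETS core that runs into a YY1 core through a shared AA, on either strand. No member window held it. The core GCGCATGC of NRF1, a factor known for nuclear genes of mitochondria, was present in 4% of cytosolic, 10.7% of mitochondrial and 2.71% of all windows. It nearly reads the same on both strands, so that matches on the opposite strands can overlap. Examples, with the core in capitals, are the ETS core of RPL15 at chr14:18271126-18271155 (minus strand), that of MRPL51 at chr6:125192098-125192127 (plus strand) and the NRF1 core of MRPL32 at chr13:14613107-14613136 (minus strand).
RPL15: ttgggagagcatCCGGAAgcggcgggctgt
MRPL51: ccaggggctaaaCCGGAAgtatttgactgg
MRPL32: tctttgacccttGCGCATGCgcaagagggg
A match is a description of the sequence and no evidence of binding.

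In level, the cytosolic class was by far the more abundant. Per kilobase of a representative transcript, the level was 194 CPM per kb at the median of 80 cytosolic genes with a known length (quartiles 117 and 324), and 12.7 CPM per kb at the median of 78 mitochondrial genes (quartiles 6.64 and 19.4), a ratio of 15.3. CPM is the gene's count scaled to the library total after TMM, the default scaling of edgeR. RPL41, the smallest ribosomal protein, stood highest at 943 CPM per kb. RPL10, which joins the large subunit late in its assembly, followed at 617 CPM per kb. The highest mitochondrial value was that of MRPS21, a small-subunit protein, at 55.5 CPM per kb. Lengths limit such comparisons between genes, since the annotation gives long 3′ ends to some members, such as 5179 bases for RPS15A.

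One library stood apart for these genes. RD replicate 3 was the highest of the 6 libraries for 46.2% of the mitochondrial members, against 28% of all tested genes, and for 8.54% of the cytosolic members. Its median mitochondrial member lay 0.13 above that gene's mean on the log2 scale, while in the other 5 libraries the median deviation ran from -0.09 (HFD replicate 1) to 0.01 (HFD replicate 2). The cytosolic medians were -0.03, 0.01 and -0.02 in the RD libraries and -0.02, 0.04 and 0.04 in the HFD libraries. Values without RD replicate 3 are therefore given beside the class results.

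No cytosolic ribosomal protein gene passed the test, and 1 mitochondrial gene, MRPS6, did. By edgeR's quasi-likelihood test with Benjamini-Hochberg adjustment over all genes and a threshold of 0.05, 0 of 82 cytosolic genes were called in either direction. The background over all tested genes was 10.5% called (5.87% in the higher and 4.61% in the lower direction). At an unadjusted p under 0.05, 3 cytosolic genes were higher and 0 lower (all genes: 14% and 12.5%), and DESeq2 and limma-voom called 0 (all genes: 6.77% higher and 6.05% lower by DESeq2, 5.88% and 4.25% by limma-voom). Of the 78 mitochondrial genes 0 were called higher and 1 lower, and at an unadjusted p under 0.05 the numbers were 0 and 5. DESeq2 called 2 mitochondrial genes lower (MRPS6 and MRPL51), and limma-voom called MRPS6. In whole glands, fewer cells of a type and less RNA per cell cannot be told apart.

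**Figure D1:**
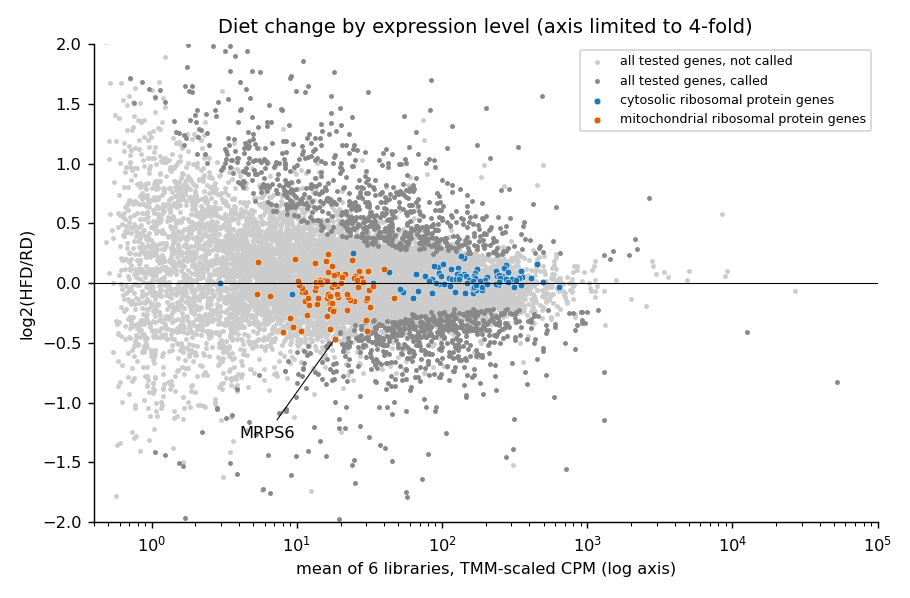
The log2 change (HFD over RD, vertical axis, limited to 4-fold either way) is plotted against the mean CPM of 6 libraries (log axis) for all tested genes in grey, darker where called, with cytosolic members in blue and mitochondrial members in orange. The blue points lie between -0.13 and 0.25, and most form a narrow band about 0 at high levels. The class reaches down to 2.96 CPM, and its largest estimate, that of RPS4XP3, is not at a high level. The orange points spread from -0.47 to 0.24 at lower levels than most blue points, and MRPS6 is the only member called.

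The cytosolic values were tight. Their median log2 change was 0.03 (quartiles -0.01 and 0.08), beside -0.002 over all tested genes (quartiles -0.15 and 0.19). Of the 82 genes, 55 had a positive and 27 a negative estimate. The median SD between libraries of a group was 0.06 on the log2 scale, against 0.14 over all tested genes. For 74 of 82 genes (90.2%) the 95% interval of the change lay inside 1.25-fold either way, as it did for 27.7% of all tested genes, so that changes past 1.25-fold lie outside the intervals of most of these genes. The class was also more abundant, with a median of 158 CPM against 29.7 CPM over all tested genes. Genes of equal level were not compared. Without RD replicate 3 the cytosolic median was 0.02.

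The mitochondrial values lay slightly lower and were less precise. The median log2 change was -0.07 (quartiles -0.15 and 0.03), with 27 positive and 51 negative estimates. The median SD between libraries of a group was 0.14, as over all tested genes, and 19 of 78 intervals (24.4%) lay inside 1.25-fold. The mitochondrial genes were counted at lower levels, with a median of 17.2 CPM against 158 CPM in the cytosolic class. Without RD replicate 3 the mitochondrial median was 0.004. The difference between the class medians, 0.10 on the log2 scale with all 6 libraries, was then 0.02.

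**Figure D2:**
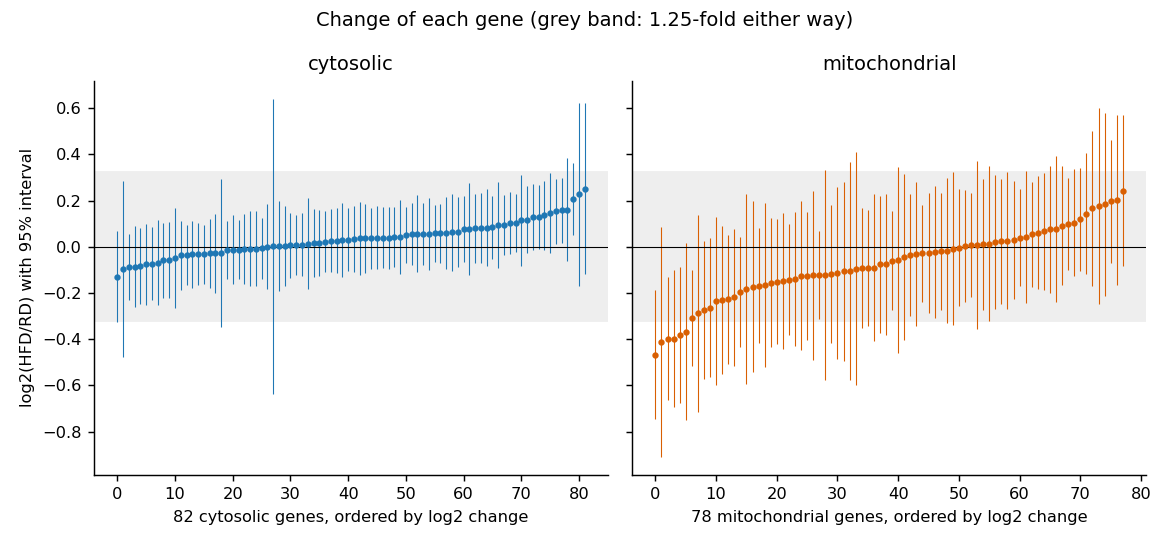
Each point is 1 gene's log2 change (HFD over RD) with its 95% interval from the edgeR fit, cytosolic genes on the left and mitochondrial genes on the right, each ordered by the estimate, and the grey band marks 1.25-fold either way. Of the cytosolic intervals 74 of 82 stay within the band, and of the mitochondrial intervals 19 of 78.

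As a share of all counts, the cytosolic members held 1.42%, 1.43% and 1.36% in RD replicates 1, 2 and 3 and 1.45%, 1.53% and 1.55% in HFD replicates 1, 2 and 3. The groups did not overlap, and the mean was 1.07 times as high in HFD (1.40% ± 0.042 and 1.51% ± 0.051, SD, n = 3 each). The mitochondrial members held 0.143%, 0.142% and 0.153% in RD and 0.140%, 0.149% and 0.148% in HFD, with overlapping groups and a mean of 0.146% in each. These are shares of raw totals, which hormone transcripts weigh on. The 16 pituitary endocrine markers, all detected, summed to 86311 to 96890 CPM in the RD libraries and 59471 to 66131 CPM in the HFD libraries. Of these markers 5 were called higher and 6 lower (all genes: 5.87% and 4.61%). With the hormone genes left out of the total the cytosolic ratio was 1.05, and with TMM scaling it was 1.03. In TMM-scaled CPM the summed core proteins overlapped between the groups. Those of the large subunit summed to 8251, 8510 and 8218 CPM in RD and 8294, 8671 and 8637 CPM in HFD. Those of the small subunit summed to 5301, 5433 and 5220 CPM in RD and 5268, 5522 and 5608 CPM in HFD. No share was tested, since a sum over the members has no p here.

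The cytosolic count per mitochondrial count is free of the library total. It was 9.96, 10.1 and 8.88 in the RD libraries and 10.3, 10.2 and 10.4 in the HFD libraries, a mean of 9.65 ± 0.67 against 10.3 ± 0.11 (SD, n = 3 each). The groups did not overlap, and RD replicate 3 lay far below the rest. The ratio of the means was 1.07 with all libraries and 1.03 without RD replicate 3.

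**Figure D3:**
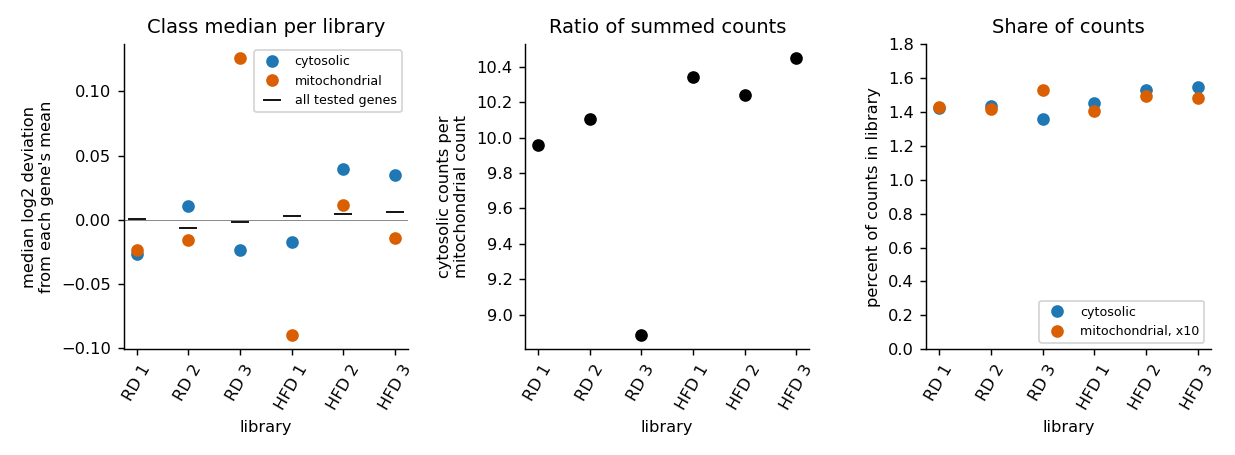
For each of the 6 libraries, the left panel gives the median log2 deviation of the class members from each gene's own mean, the middle panel the summed cytosolic counts per mitochondrial count (axis not from 0), and the right panel the share of counts, with the mitochondrial share multiplied by 10. RD replicate 3 stands apart with the highest mitochondrial median, 0.13, and the lowest ratio, 8.88. The cytosolic share of raw totals is higher in every HFD library than in every RD library, but TMM-scaled sums of the core proteins overlapped.

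Within the cytosolic class the large and the small subunit had nearly the same change. The 43 core proteins of the large subunit had a median log2 change of 0.04 and the 29 core proteins of the small subunit 0.03. The 3 acidic stalk proteins, which bind translation factors, had a median of 0.01. RPLP0, the base of the stalk, was at 288, 277 and 291 CPM in the RD libraries and 272, 294 and 294 CPM in the HFD libraries. RPL4, which lines the tunnel through which the new protein leaves, had the highest CPM of all members: 639, 651 and 636 CPM in RD and 593, 645 and 646 CPM in HFD, with overlapping groups, a log2 change of -0.03 and a 95% interval from -0.16 to 0.10. RPL10 was at 489, 514 and 472 CPM in RD and 481, 505 and 496 CPM in HFD, and the groups overlapped.

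The members nearest to a call in the cytosolic class were higher in HFD. RPL15, a protein of the large subunit, was at 137, 134 and 124 CPM in RD and 146, 160 and 150 CPM in HFD. All 3 HFD libraries lay above all 3 RD libraries, and the log2 change was 0.21 ± 0.07 (SE, edgeR's quasi-likelihood test, adjusted p = 0.0884). It passed under 1 of 18 alternatives, scaling by library size alone (adjusted p = 0.0423), under which the median of all genes itself moved up by 0.07. RPL3, next to the catalytic centre, was at 425, 454 and 401 CPM in RD and 460, 489 and 477 CPM in HFD, with no overlap and a log2 change of 0.16 ± 0.06 (SE, edgeR, adjusted p = 0.151). RPS14, a small-subunit protein named here after its values were seen, had a log2 change of 0.15 ± 0.06 (SE, edgeR, adjusted p = 0.153).

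Groups without overlap were found in 15 of 82 cytosolic genes (18.3%), against 32.5% of all tested genes. HFD lay above RD in 14 (17.1%, all genes 16.9%) and below RD in 1, RPL23 (1.22%, all genes 15.6%). RPL23, a large-subunit protein known to bind MDM2, was at 153, 144 and 146 CPM in RD and 133, 142 and 141 CPM in HFD. The share with HFD above was thus near that of all genes, and the share with HFD below was lower than that of all genes.

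RPS27A, which encodes ubiquitin fused to a small-subunit protein, was chosen after its values were seen because 1 library decides its estimate. It was at 120, 128 and 122 CPM in RD and 111, 123 and 199 CPM in HFD. HFD replicate 3 alone was high, the log2 change of 0.23 did not pass (edgeR, adjusted p = 0.461), and without that library it was -0.07.

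**Figure D4:**
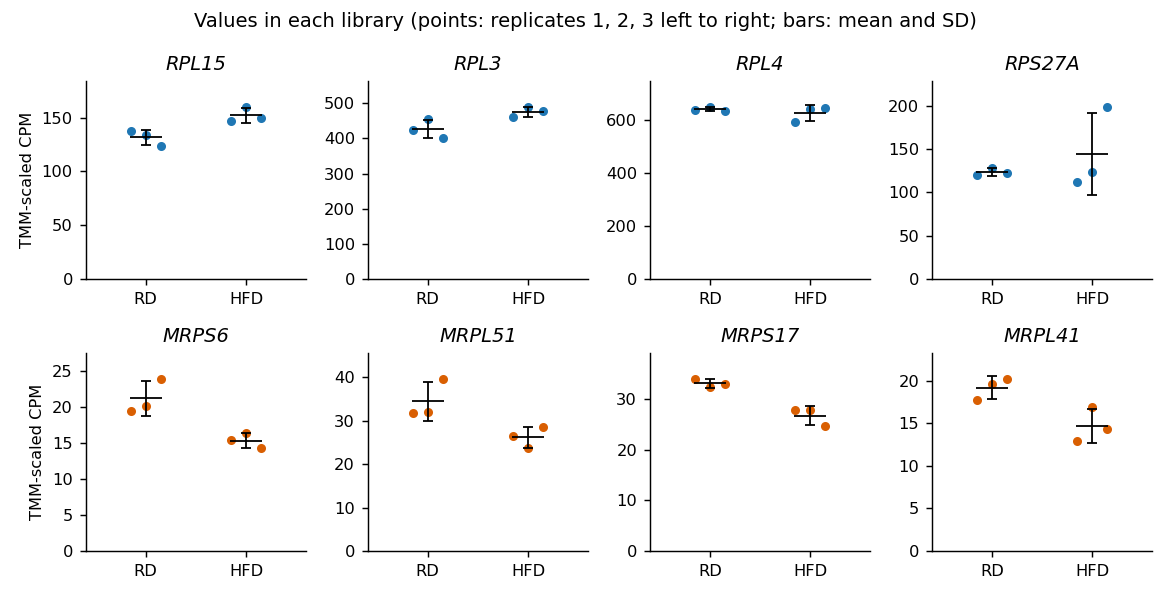
TMM-scaled CPM in each library for 4 cytosolic genes (blue, upper row) and 4 mitochondrial genes (orange, lower row), with replicates 1, 2 and 3 from left to right in each diet and bars for mean and SD of 3 libraries. RPL15 and RPL3 lie higher and the 4 mitochondrial genes lower in every HFD library than in every RD library, RPL4 overlaps, and RPS27A is high in HFD replicate 3 alone.

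The tested copies of cytosolic ribosomal protein genes lay below the median level of the class and did not pass the test. Of the 7 listed, 4 were tested, with a median log2 change of -0.04. RPL22L1, the copy of RPL22, was at 40.5, 43.2 and 40.9 CPM in RD and 42.0, 47.2 and 43.6 CPM in HFD (log2 change 0.09 ± 0.08, SE). RPL36AL had the most negative estimate of the class, at 62.4, 66.5 and 68.2 CPM in RD and 56.5, 66.4 and 57.4 CPM in HFD, a log2 change of -0.13 ± 0.09 (SE) with overlapping groups. RPL7L1 and RPS27L had log2 changes of -0.05 ± 0.10 and -0.03 ± 0.14 (SE). RPS19BP1, which shares the name but encodes a protein that binds RPS19 and is no part of the ribosome, had -0.10 ± 0.17 (SE).

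The largest positive estimate of the class belonged to RPS4XP3, at 23.6, 17.4 and 25.7 CPM in RD and 30.7, 22.0 and 26.8 CPM in HFD (log2 change 0.25 ± 0.17, SE, overlapping groups). This row and RPL32P4 bear names of human pseudogenes and matched no mouse gene, so what was counted in them is uncertain. For 59 of the 80 cytosolic genes with coordinates the mouse annotation also names pseudogenes, 283 in all and up to 24 for RPL31, against 5 pseudogenes for 3 mitochondrial genes. How the counting placed reads shared with such copies is not given in the sources used here. Levels of single cytosolic genes may be affected, which was not tested.

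Among the mitochondrial members, MRPS6, a small-subunit protein of bacterial descent, fell. It was at 19.5, 20.1 and 23.9 CPM in RD and 15.4, 16.3 and 14.3 CPM in HFD, so that every HFD library lay below every RD library. The log2 change was -0.47 ± 0.12 (SE), with a 95% interval of the fold from 0.597 to 0.877, and an adjusted p of 0.0422 by edgeR's quasi-likelihood test. The call held in 11 of 18 alternatives and was lost with scaling by library size (adjusted p = 0.0626), with a replicate block (0.0994), without RD replicate 2 (0.0731) or 3 (0.0788), and without HFD replicate 1 (0.103), 2 (0.0992) or 3 (0.164). The log2 change ranged from -0.53 to -0.37 over these fits.

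MRPS6 shares its first exon with another gene. In GENCODE M21 on mm10 (GRCm38), MRPS6 spans chr16:92058270-92112227 on the plus strand, its first exon lies at 92058270 to 92058480, and the first exon of SLC5A3, the transporter of myo-inositol, lies within it at 92058322 to 92058480 on the same strand. The pyrimidine run printed above lies in this shared stretch. SLC5A3 was more abundant, at 229, 225 and 172 CPM in RD and 215, 179 and 153 CPM in HFD, and had a log2 change of -0.20 ± 0.14 (SE, edgeR, adjusted p = 0.398). How reads from the shared bases were assigned is not known, and their part in the MRPS6 value was not tested.

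The next members by p were also lower in HFD in every library. MRPL51, a protein found only in the mitochondrial large subunit, was at 31.8, 31.9 and 39.7 CPM in RD and 26.4, 23.7 and 28.5 CPM in HFD, with a log2 change of -0.40 ± 0.12 (SE, edgeR, adjusted p = 0.0626). By DESeq2 it passed (adjusted p = 0.0336). The 3 that follow were named after their values were seen. MRPS17, a small-subunit protein of bacterial descent, was at 34.1, 32.4 and 33.1 CPM in RD and 27.8, 28.0 and 24.7 CPM in HFD (log2 change -0.31 ± 0.09, SE, edgeR, adjusted p = 0.0656). MRPL32, which a mitochondrial protease trims before it joins the ribosome, was at 11.7, 12.8 and 12.1 CPM in RD and 9.71, 9.37 and 8.72 CPM in HFD (log2 change -0.40 ± 0.13, SE, edgeR, adjusted p = 0.0867). MRPL41 was at 17.7, 19.7 and 20.3 CPM in RD and 13.0, 16.9 and 14.3 CPM in HFD (log2 change -0.38 ± 0.13, SE, edgeR, adjusted p = 0.0962).

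Groups without overlap were found in 10 of 78 mitochondrial genes (12.8%, all genes 32.5%). In 9 of them HFD lay below RD (11.5%, all genes 15.6%) and in 1, MRPL24, above (1.28%, all genes 16.9%). MRPL24, a large-subunit protein, was at 29.98, 30.6 and 28.2 CPM in RD and 30.8, 31.2 and 33.1 CPM in HFD. Neither class thus had more genes with separate groups than the genes tested as a whole.

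By role the mitochondrial medians ran from -0.13 to -0.01, and the difference between roles was not tested. The 16 small-subunit proteins of bacterial descent had a median log2 change of -0.13, with 14 negative estimates and 1 call. Without RD replicate 3 this median was -0.04. The 28 large-subunit proteins of bacterial descent had a median of -0.04, the 22 large-subunit proteins gained in mitochondria -0.02, and the 11 such small-subunit proteins -0.01. Without RD replicate 3 these medians were 0.03, -0.01 and 0.04, so that 2 of them turned positive. MRPS30 was placed with the large subunit, where its protein lies. MRPS36, whose protein is now known as part of the oxoglutarate dehydrogenase complex, was at 5.69, 6.84 and 7.63 CPM in RD and 4.72, 6.93 and 7.10 CPM in HFD.

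The most abundant mitochondrial members by CPM overlapped between the diets. MRPL17 was at 45.3, 49.1 and 52.3 CPM in RD and 45.3, 43.2 and 46.2 CPM in HFD (log2 change -0.12 ± 0.09, SE). MRPL1, of the mobile stalk that binds the leaving tRNA, was at 35.1, 40.2 and 39.2 CPM in RD and 36.8, 43.7 and 43.8 CPM in HFD. MRPL10, at the base of the factor-binding stalk, was at 32.2, 34.4 and 34.2 CPM in RD and 30.6, 35.9 and 32.4 CPM in HFD. The largest positive estimate was that of MRPL11, also at the base of the stalk, at 14.7, 12.4 and 17.5 CPM in RD and 16.0, 18.1 and 18.9 CPM in HFD (log2 change 0.24 ± 0.15, SE, edgeR, adjusted p = 0.331). Its groups overlapped too. Exons of 27 cytosolic and 8 mitochondrial members, MRPS6 among the latter, overlap a gene on the same strand. Those of 28 mitochondrial and 19 cytosolic members overlap a gene on the opposite strand, and whether the counting used strand is not known. RPL15 has such an overlap on the opposite strand, with NKIRAS1, a regulator of NF-kappa-B signalling. NKIRAS1 had a log2 change of -0.05 ± 0.13 (SE).

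Ribosomal proteins outside the naming rule were not called either, by edgeR, DESeq2 or limma-voom. For the cytosolic ribosome RACK1, RPSA and FAU had log2 changes of 0.10, -0.01 and -0.01, with 0 called and 0 at an unadjusted p under 0.05. For the mitochondrial ribosome 0 of 5 were called (unadjusted p under 0.05: 0 higher and 1 lower), among them DAP3 at -0.07, PTCD3 at 0.07, AURKAIP1 at 0.14 and CHCHD1 at -0.39 (edgeR, adjusted p = 0.125).

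Of 103 ribosome assembly factors, which build cytosolic ribosomes, 1 was called higher and 6 lower (all genes: 5.87% and 4.61%). By this adjusted threshold the lower calls were near the background. At an unadjusted p under 0.05 (edgeR), 1 was higher and 20 lower (all genes: 14% and 12.5%). Groups did not overlap with HFD above in 1.94% and with HFD below in 24.3% (all genes: 16.9% and 15.6%). The list had a median log2 change of -0.16 and 89 negative estimates, while the median of all tested genes was -0.002. UTP20, of the complex that processes small-subunit RNA, fell from 79.6 ± 3.67 to 56.9 ± 4.25 CPM (SD, n = 3 each). Its log2 change was -0.48 ± 0.08 (SE, edgeR, adjusted p = 0.00764), and it was called in 18 of 18 alternatives. MDN1, the motor protein that strips factors from the immature large subunit, fell by 0.35 on the log2 scale, and NOP16, a nucleolar protein of the same pathway, fell by 0.52. NOP53, a late factor of large-subunit assembly, rose from 75.1 ± 4.69 to 102 ± 7.36 CPM (SD, n = 3 each). Over 18 alternatives MDN1 was called in 15, NOP16 in 10 and NOP53 in 16. RD replicate 3 stood apart here as well, with a summed level of 5397 CPM against 4519 and 4605 CPM in the other RD libraries and 4315 to 4501 CPM in the HFD libraries. Without it the median was -0.05, with 1 called higher and 2 lower, and without HFD replicate 3 there were 0 calls higher and 1 lower. With any other single library left out, 0 or 1 were called higher and 2 to 5 lower. The 6 lower calls were 2 with scaling by library size, 2 with upper-quartile scaling and 1 with a replicate block. Of 15 genes of RNA polymerase I and its factors, which transcribe ribosomal RNA, 0 were called by edgeR (unadjusted p under 0.05: 1 higher and 2 lower; DESeq2 and limma-voom also 0), with a median of -0.15 and of -0.04 without RD replicate 3. Without RD replicate 1, 1 was called lower, and with scaling by library size 1 was called higher.

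Of 51 cytosolic translation factors 1 was called higher and 2 lower (all genes: 5.87% and 4.61%), no more than the background, with a median log2 change of -0.08. EIF4G1, the scaffold of the cap-binding complex, fell from 672 ± 37.1 to 530 ± 16.5 CPM (SD, n = 3 each) and was called in 16 of 18 alternatives. TPT1 and EEF2, both themselves known as TOP mRNAs, changed in opposite directions: TPT1 fell by 0.23 and EEF2 rose by 0.20 on the log2 scale. Of 28 regulators of TOP mRNAs and of mTOR signalling 1 was called higher and 2 lower (median -0.09), counts that are too small to read against the same background. LARP1B, a relative of LARP1, fell by 0.60, EIF4EBP2, an mTOR target that holds back the cap-binding protein, fell by 0.22, and TIA1, which represses TOP mRNAs under stress, rose by 0.28. Over 18 alternatives, TPT1 was called in 11, EEF2 in 7, LARP1B in 14, EIF4EBP2 in 9 and TIA1 in 13. Without HFD replicate 2 or HFD replicate 3 neither list held a call, and without HFD replicate 1 the regulators held 0. With a replicate block the regulators held 0 calls and the translation factors 1, and with scaling by library size the translation factors held 5 higher and 1 lower.

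On the mitochondrial side, 0 of 16 translation factors were called by edgeR, with 0 at an unadjusted p under 0.05 in either direction (DESeq2 and limma-voom also 0; median log2 change -0.09). Of 27 ribosome assembly factors 1 was called lower (all genes 4.61%), and the median of the list was -0.02. The gene called, GRSF1, an RNA-binding protein of mitochondrial RNA granules, fell by 0.27 on the log2 scale. It was called in 10 of 18 alternatives, and not with scaling by library size or upper quartile, with a replicate block, without RD replicate 2 or 3, or without any 1 of the HFD replicates. The mRNAs that mitochondrial ribosomes translate had positive estimates throughout. Of 12 tested mitochondrially encoded mRNAs 12 were positive, 3 were called higher (MT-ND5, MT-ND1 and MT-CO2; all genes 5.87%), the median log2 change was 0.20, and they summed to 7599 to 8375 CPM in RD and 8924 to 9534 CPM in HFD. Without HFD replicate 2 or 3, 0 of them were called (edgeR), without RD replicate 1 or HFD replicate 1 and with a replicate block 1 was, and with scaling by library size 7 were.

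**Figure D5:**
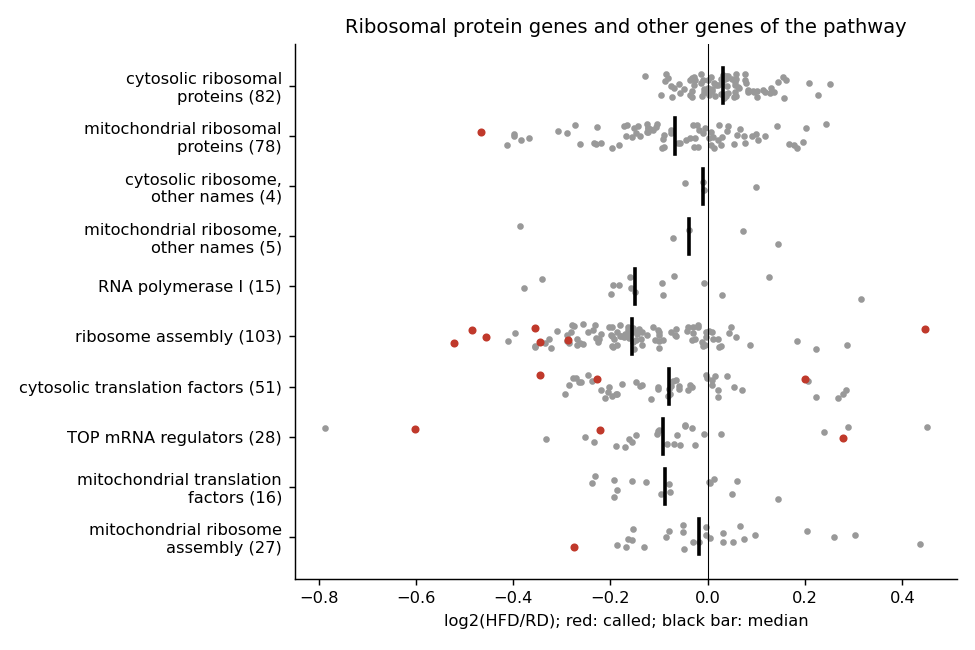
The log2 change (HFD over RD) of every tested gene is shown for both ribosomal protein classes and for 8 related gene lists, with the number of tested genes in brackets, called genes in red and the median of each list as a black bar. The assembly list has the lowest median, -0.16, and 7 red points, while the cytosolic ribosomal proteins have a median of 0.03 and no red point.

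Other cells of the gland were checked with lists of markers. Of 9 folliculostellate and pituicyte markers 1 was called higher and 1 lower (all genes: 5.87% and 4.61%). Of 5 neural lobe markers 0 were called (edgeR, unadjusted p under 0.05: 0 higher and 1 lower). Of 11 endothelial and mural markers 1 was called higher, and of 9 myeloid and lymphoid markers 0 were called (unadjusted 0). DESeq2 and limma-voom gave the same counts. Of the folliculostellate and pituicyte markers 0 were called higher with a replicate block or without any single library other than RD replicate 3. Without HFD replicate 3 they held 0 lower calls as well, and the endothelial and mural markers held 0 calls. Of 8 erythroid markers 1 was tested and not called. The first 4 lists summed to 218 to 286, 285 to 301, 739 to 762 and 67.3 to 95.02 CPM in RD and 212 to 266, 234 to 320, 722 to 798 and 82.5 to 94.1 CPM in HFD. The neural lobe markers had a median of 3.08 CPM and a maximum of 263 CPM, so that 1 gene made up most of their sum. The part of such cells, and of the endocrine markers above, in the ribosomal protein values was not tested.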

How the data were processed

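Read counts per gene, as deposited by the authors, were whole numbers without normalization. The build was mm10, per the submitters' processing notes. Which aligner, counter and gene models were used is not given in the sources used here. Rows were mapped to GENCODE M21 by symbol. Among counts from 1 to 10, 64.0% to 67.0% were even, against 48.9% to 50.4% above 200, so errors were taken only from the spread between libraries. The whole table was fitted with edgeR 4.0.16 in R 4.3.3 (TMM, minimum count 10, minimum total 15, diet as the only term, quasi-likelihood test, two-sided, Benjamini-Hochberg, threshold 0.05). The SE of a log2 change is its size over the root of F. Fits were tested on simulated data with planted changes larger than any estimate of the members, so the recovery of changes of the members' size was not tested. As alternatives, scalings and filters were varied, and DESeq2 1.42.0, limma-voom 3.58.1, halved counts, trends on GC content or length removed, a replicate block and the omission of each library were tried. Each library was counted as 1 sample. Replicate pairs had chi-square values per degree of freedom from 4.48 to 21.1, which cannot show whether the libraries came from separate animals.

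The rule for members uses symbols alone, but both the rule and the lists were chosen with earlier results of these data known. The text names called members, the largest estimates in each direction, the 3 members with the highest CPM in each class, tested copies, members nearest the threshold, and up to 4 genes with the smallest p from each other list. Other genes are named as examples or as said in place. Representative transcripts were coding, RefSeq-linked and the shortest of equal rank. Start windows came from RefSeq. A gene that the rule takes is not reported here.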

Additional observations from a re-analysis of the deposited data

How the results depend on the processing

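Over all genes the count called higher (814) and lower (639) moved to 1121 and 425 with scaling by library size, to 473 and 335 with a replicate block, and to between 243 and 813 higher and 188 and 710 lower when 1 library was left out. With scaling by library size the cytosolic median was 0.10 and 1 cytosolic gene was called higher, and with upper-quartile scaling the median was 0.063. The mitochondrial count called lower was 2 by DESeq2, 0 with scaling by library size, 0 with a replicate block, and 0 to 1 with 1 library left out. With 1 library left out the cytosolic median ran from 0.014 to 0.045, the mitochondrial median from -0.094 to 0.0038, and the difference of the medians from 0.016 to 0.134. The HFD over RD ratio of the cytosolic share was 1.03 and that of the mitochondrial share 0.954 with TMM scaling, and 1.06 to 1.09 and 0.987 to 1.02 with 1 library left out. Deviations of libraries with the same replicate number correlated at -0.13, 0.004 and -0.10, and those with different numbers from -0.03 to 0.12. These values gave no sign of pairing by number, but with so few libraries they cannot settle it. Of 1008 values of 56 named genes under the alternatives, 66 lost a call, 7 gained one and 0 called values changed sign; 29 uncalled values changed sign. The median 95% half-width was 0.29 on the log2 scale in the mitochondrial class, at a median of 17.2 CPM, and 0.15 in the cytosolic class, at 158 CPM. The cause of the wider intervals was not tested.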
